A study of Mus musculus with 4 samples.

Results

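The genes described here encode the machinery that repairs broken DNA by homologous recombination, the Fanconi pathway that clears crosslinks between DNA strands, and the checkpoint kinases that halt the cell cycle while DNA is damaged. They are a list of 35 genes, and every probe set that the array's annotation pairs with 1 of their symbols was taken. Of the 35, 33 were measured, by 36 probe sets each listing a single gene, among 19938 genes in all. Xrcc2 and Rbbp8 were not analysed here. Bard1 was measured by 3 probe sets and Nbn by 2, and the other 31 genes by 1 each.

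The cells were Dalton's lymphoma ascites (DLA), a mouse tumour passed from animal to animal by transplantation and grown in the peritoneum, here of male Swiss albino mice aged 4 to 5 months. The irradiated group received 2 Gy of electrons to the whole body on day 8 after transplantation, and its cells were collected 48 h later. The control group carried the same tumour and received no irradiation. Each group had 2 one-colour arrays, labelled as biological replicates 1 and 2. The sources used here do not say whether a replicate was 1 mouse or a pool. The p-values rest on the spread between arrays of the same group, with each gene's variance drawn towards that of all genes.

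In homologous recombination the MRE11, RAD50 and NBN proteins bind a broken end, nucleases resect it to single strands, and BRCA1 and BRCA2 act in the steps that let the broken end use the intact sister chromatid as a template. In the Fanconi pathway a core complex marks the FANCD2 and FANCI pair with ubiquitin at a blocked replication fork, and the same recombination proteins then complete the repair. ATM responds to broken ends and ATR to single-stranded DNA, and they act mainly through the kinases CHK2 and CHK1. Because a sister chromatid is needed, recombination is a process of S and G2 phase, and many of these genes are known E2F targets whose messenger RNA is highest in cycling cells.

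All values are log2 probe set intensities. Array medians lay between 6.43 and 6.46. The irradiated arrays differed more from each other than the control arrays did, with an SD of the difference between replicates of 0.362 in irradiated and 0.167 in control arrays over all genes. The 10 measured T cell markers and the 8 measured B cell markers all had a mean below the median of the genes tested, 6.68. Of 12 pan-leukocyte markers, 10 lay below it, among them Ptprc, which encodes the antigen CD45, at 5.57 and 5.49 in irradiated and 5.63 and 5.64 in control arrays. The other 2 were Lcp1, an actin-bundling protein gene, at 11.78 and 11.96 in irradiated and 11.19 and 11.30 in control arrays, and Srgn, a granule proteoglycan gene, at 8.16 and 8.01 in irradiated and 9.29 and 9.89 in control arrays. Of 12 epithelial and trophoblast markers, 8 lay at or above that median, with the keratin Krt8 at 13.93 and 13.30 in irradiated and 14.07 and 14.11 in control arrays. So did 5 of 9 mesothelial markers, and Krt8, Krt18 and Krt19 are on both lists. Of the other lists, 1 of 13 neutrophil, 3 of 14 macrophage and 1 of 10 erythroid markers lay there. Probe sets differ in brightness for reasons of their own, so these levels do not settle the lineage of the tumour.

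Most of the recombination, Fanconi and checkpoint genes had more signal in the irradiated arrays, by less than 2-fold each in the brightest probe set. Of the 33 genes, 27 had a positive difference, against 44% of all genes, and 6 a negative one, and the median difference was 0.36 on the log2 scale, which is 1.28-fold. The median over all genes tested was −0.03. Each irradiated value exceeded each control value for 23 of the 33 genes, which is 69.7% of them, against 17.8% of all genes. They lay below both controls for 3, namely Fancf, Mre11a and Atrip, against 23.9% of all genes. In limma, 16 of the 33 (48.5%) were higher at an unadjusted p under 0.05, against 5.21% of all genes, and 0 were lower, against 5.1%. The members were brighter than most genes, with 32 of the 33 at or above the median of the genes tested. In a fit of genes at or above that median, 19 members were higher and 0 lower, against 8.25% and 7.76% of the genes fitted. No member passed Benjamini-Hochberg adjustment over all genes, where 0.00502% of genes, a single one, did. In bulk RNA, a different share of cells that make a transcript cannot be told apart from a different amount per cell.

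**Figure D1:**
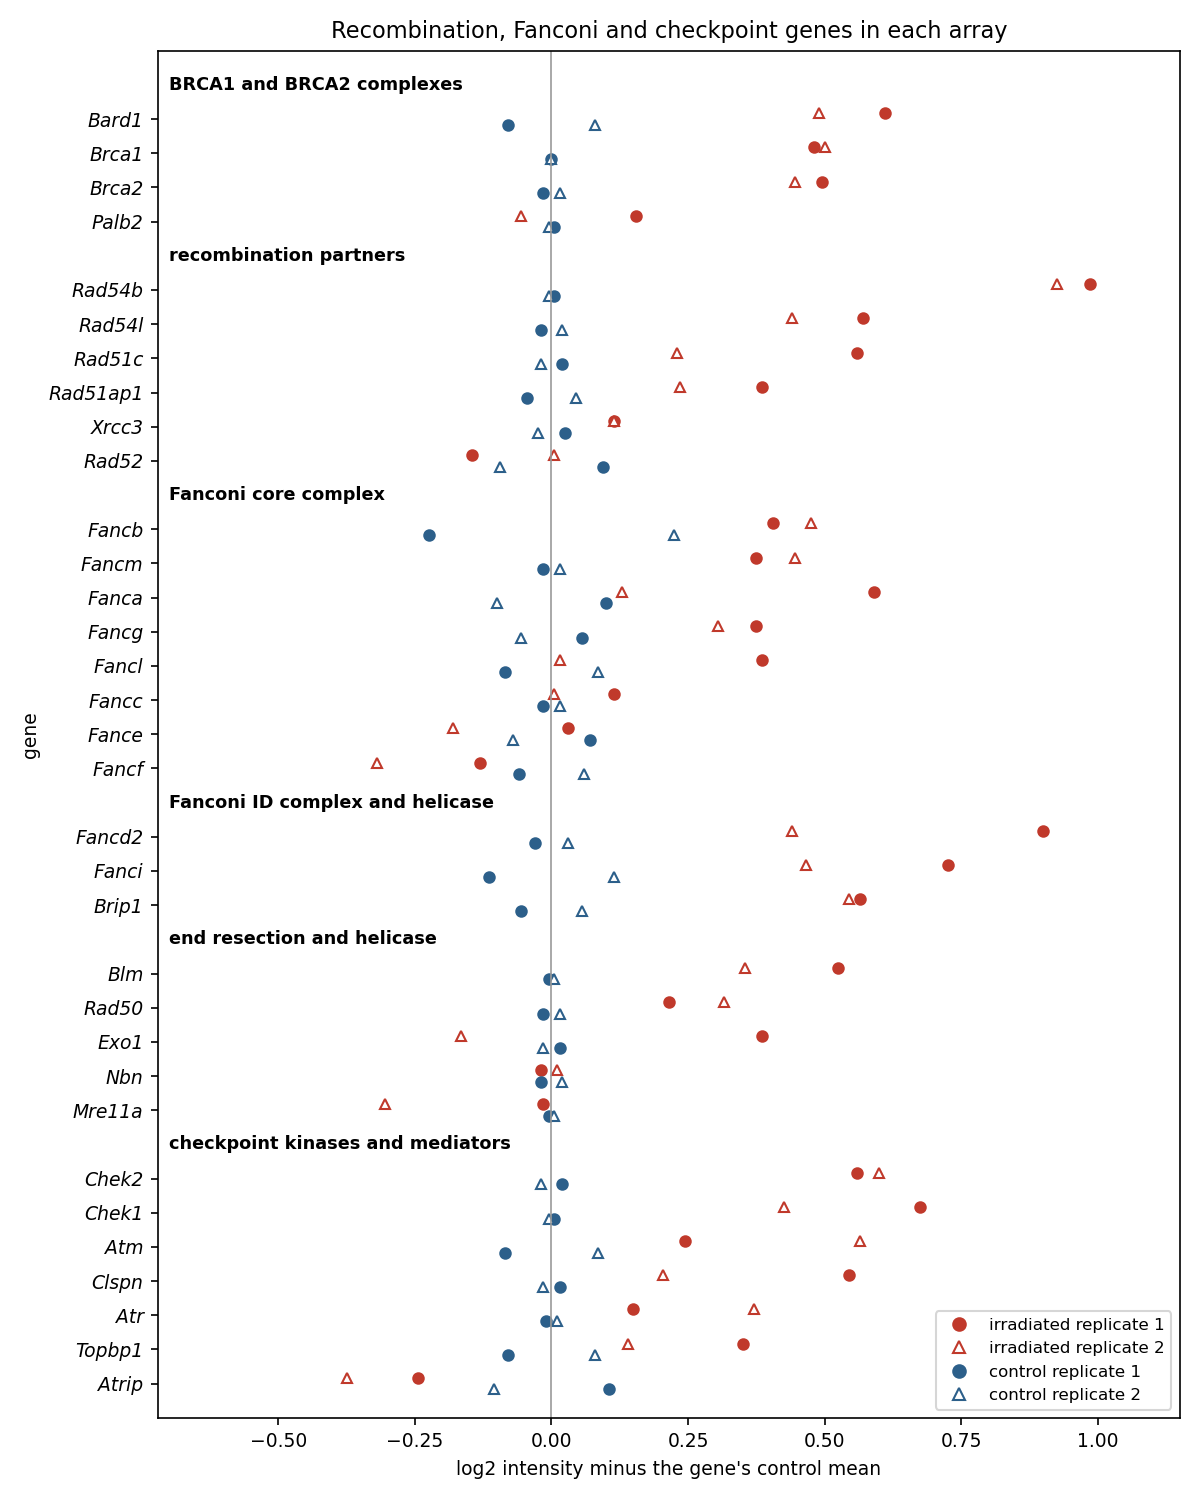
Log2 intensity of 33 recombination, Fanconi and checkpoint genes in each array, as the distance from that gene's control mean (horizontal axis, log2 units), with genes down the page by role. Red marks are irradiated and blue marks control arrays, circles replicate 1 and triangles replicate 2, and for 23 genes both red marks lie right of both blue marks.

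The size of the count depended on which arrays were used. The 16 became 14 without irradiated replicate 1 and 18 without irradiated replicate 2, where 13% and 7.51% of all genes were higher at the same threshold. It became 2 without control replicate 1 and 6 without control replicate 2, where 1.22% and 1.32% of all genes were. With 1 control array left, the spread comes from the irradiated pair alone, which was the wider one. With 1 array left out, the difference ran from 0.925 to 0.985 for Rad54b and from 0.56 to 0.6 for Chek2. The sign was the same in every fit run (15, or 14 for Fancc) for 28 of the 33 genes. Several of these fits, such as dim-gene filters, a replicate block or other variance estimates, cannot change a difference, so their agreement was fixed in advance.

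**Figure D2:**
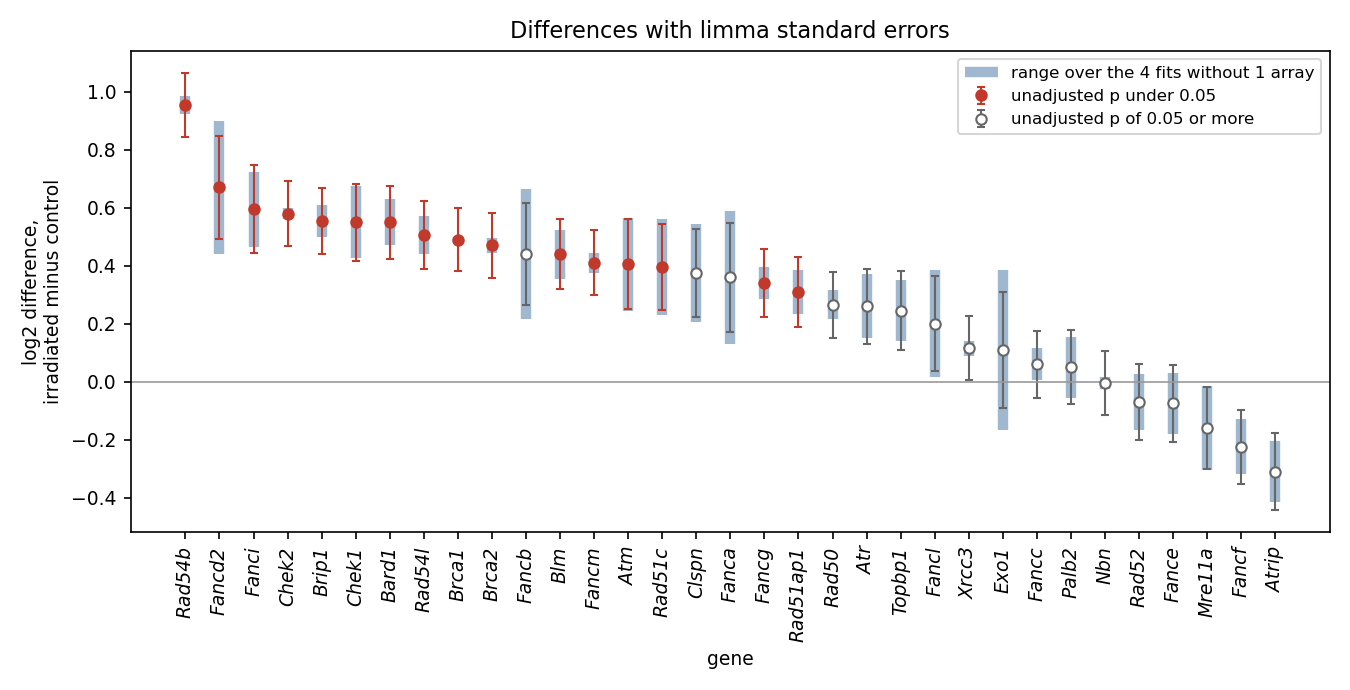
Log2 difference of irradiated minus control arrays for 33 genes, ordered by size (vertical axis, log2 units). Points are limma estimates with standard errors, filled red for the 16 with an unadjusted p under 0.05, and the pale bars span the 4 fits that leave out 1 array.

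Promoter sequences were looked at because E2F sites are a known element of several of these genes. RefSeq promoters (assembly GRCm38.p6, 250 bases before to 50 after the start) were found for 28 of the 33 genes, and were not in the table for Rad54b, Fancd2, Rad50, Nbn and Exo1. The E2F words searched on both strands were TTTGGCGC, TTTCCCGC, TTTGCCGC and TTTCGCGC. At least 1 word was present in 7 of the 28 promoters (25%), compared with 3.06% of the 15614 promoters of tested genes and 2.31% of all 27025 genes with a promoter. The 7 were Bard1, Brca2, Rad51c, Fancg, Topbp1, Clspn and Chek2, and 5 of them carried TTTCCCGC and 2 TTTCGCGC. For 5 the word lay wholly before the start, and those stretches of 30 bases are shown with the word in capitals, read 5′ to 3′ on the strand of the gene, so that GCGGGAAA and GCGCGAAA are words of the opposite strand. The outermost annotated start of a gene was taken where a promoter was given for it, and words near other starts were not searched.
Bard1 (chr1:71103163-71103192, minus strand): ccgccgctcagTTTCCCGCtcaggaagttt
Brca2 (chr5:150522442-150522471, plus strand): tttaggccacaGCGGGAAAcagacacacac
Fancg (chr4:43010335-43010364, minus strand): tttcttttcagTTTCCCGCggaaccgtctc
Topbp1 (chr9:103305187-103305216, plus strand): ccgctcggttgGCGCGAAAgtcggttcccg
Chek2 (chr5:110839820-110839849, plus strand): cgggattagccGCGGGAAAccaagacgtcg

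The first base of the word lay 209 bases before the start in Bard1, 168 in Brca2, 152 in Chek2, 129 in Topbp1 and 52 in Fancg. The 7 genes with a word had differences between 0.245 and 0.58 with a median of 0.395, and for all 7 both irradiated arrays lay above both controls. The 21 without one ranged from −0.31 to 0.595 with a median of 0.31, and 13 of them had both irradiated arrays above, where 17.8% of all genes did. Of the 5 genes with a negative difference and a promoter, 0 held a word, where 7 of all 28 did. These counts are small, and a link between the words and the differences was not tested. The CCAAT box (CCAAT) was in 18 of 28 promoters (64.3%), against 38.3% of promoters of tested genes, and the median difference was 0.3675 with and 0.3675 without it. The CHR element (TTTGAA), known from promoters of mitotic genes, was in 1 of 28, that of Bard1, against 15.2% of promoters of tested genes. A match is a run of letters and not a measured binding site.

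Of the 4 genes of the BRCA complexes, 3 were higher at an unadjusted p under 0.05, against 5.21% of all genes. BRCA1 and its partner BARD1 form a ubiquitin ligase that promotes resection, and PALB2 links BRCA1 to BRCA2. Brca1 measured 8.76 and 8.78 in irradiated arrays, against 8.28 in each control array, a difference of 0.49 ± 0.11 (limma standard error, as for every ± after a difference here; limma unadjusted p = 0.00532, adjusted p = 0.358). Brca2 measured 9.07 and 9.02 in irradiated and 8.56 and 8.59 in control arrays, 0.47 ± 0.11 (limma unadjusted p = 0.00672, adjusted p = 0.366). Neither gene's groups overlapped, and the gaps between them, 0.48 and 0.43, were wide beside the distance between replicates. Palb2, between them in the complex, measured 7.56 and 7.35 in irradiated and 7.41 and 7.40 in control arrays, so that the control pair lay inside the irradiated pair (difference 0.05 ± 0.13, limma unadjusted p = 0.708).

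Bard1 was read by 3 probe sets, which shared a direction and differed in size. The brightest measured 9.69 and 9.57 in irradiated and 9.0 and 9.16 in control arrays, a difference of 0.55 ± 0.13 (limma unadjusted p = 0.0057, adjusted p = 0.358). In the fit of all annotated probe sets, the other probe sets of Bard1 differed by 1.145 (9.39 and 9.10 in irradiated, 8.13 and 8.07 in control arrays) and by 0.79 (7.74 and 8.11 in irradiated, 7.17 and 7.10 in control arrays), with limma unadjusted p-values of 0.000426 and 0.00401. Both irradiated arrays lay above both controls in all 3 probe sets, and the fold was 2.21 in the one with the largest difference, against 1.46 in the one used in the count.

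Among the recombination partners, Rad54b had the largest difference of the 33 genes, each taken by its brightest probe set. RAD54B and its paralog RAD54L are DNA motor proteins that act during strand exchange. Rad54b measured 7.82 and 7.76 in irradiated arrays, against 6.84 and 6.83 in control arrays, a difference of 0.955 ± 0.11, or 1.94-fold (limma unadjusted p = 0.000221, adjusted p = 0.193). The replicates lay 0.06 apart in irradiated and 0.01 apart in control arrays, and the gap between groups was 0.92. Rad54l measured 7.99 and 7.86 in irradiated and 7.40 and 7.44 in control arrays, 0.505 ± 0.12 (limma unadjusted p = 0.00619, adjusted p = 0.363), also without overlap.

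The remaining genes of that role had smaller differences. Rad51c, a gene of homologous recombination, measured 7.73 and 7.40 in irradiated and 7.19 and 7.15 in control arrays (0.395 ± 0.15, limma unadjusted p = 0.0412). Rad51ap1, which encodes a DNA-binding protein that aids strand exchange, measured 8.01 and 7.86 in irradiated and 7.58 and 7.67 in control arrays (0.31 ± 0.12, limma unadjusted p = 0.0473). Both kept their groups apart, with replicate 1 the higher of the irradiated arrays. Xrcc3, another gene of homologous recombination, at 7.88 in both irradiated arrays and 7.79 and 7.74 in control arrays, differed by 0.115 ± 0.11. Rad52, an annealing factor, measured 8.15 and 8.30 in irradiated and 8.39 and 8.20 in control arrays, with overlapping groups (−0.07 ± 0.13). Neither passed (limma unadjusted p = 0.342 for Xrcc3 and 0.616 for Rad52).

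The Fanconi pair and the helicase that follows it were all higher at an unadjusted p under 0.05, against 5.21% of all genes. FANCD2 and FANCI form the clamp that the core complex marks, and BRIP1, also called FANCJ, is a helicase that binds BRCA1. Fancd2 measured 9.54 and 9.08 in irradiated and 8.61 and 8.67 in control arrays, a difference of 0.67 ± 0.18, or 1.59-fold (limma unadjusted p = 0.011, adjusted p = 0.388). Fanci measured 8.66 and 8.40 in irradiated and 7.82 and 8.05 in control arrays, 0.595 ± 0.15, or 1.51-fold (limma unadjusted p = 0.00932, adjusted p = 0.38). Both partners were higher in irradiated replicate 1 than in replicate 2, and both irradiated arrays lay above both controls. Brip1 measured 8.90 and 8.88 in irradiated and 8.28 and 8.39 in control arrays, 0.555 ± 0.11 (limma unadjusted p = 0.0037, adjusted p = 0.324), with almost equal irradiated values. By brightest probe sets, Fancd2, Fanci and Rad54b were the 3 members that differed at least 1.5-fold at an unadjusted p under 0.05. That share is to be read beside 1.7% of all genes. The other probe sets of Bard1 also passed both marks, at 2.21-fold and 1.73-fold.

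The core complex was mixed. Of its 8 genes, 6 were higher and 2 lower, the median difference was 0.27, and 2 were higher at an unadjusted p under 0.05, against 5.21% of all genes. Fancm, the translocase that anchors the complex to DNA, measured 7.65 and 7.72 in irradiated and 7.26 and 7.29 in control arrays, 0.41 ± 0.11 (limma unadjusted p = 0.0124, adjusted p = 0.4). Fancg, a scaffold subunit, measured 7.83 and 7.76 in irradiated and 7.51 and 7.40 in control arrays, 0.34 ± 0.12 (limma unadjusted p = 0.0297, adjusted p = 0.446). These groups did not overlap.

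Fancb, which acts with the ligase subunit, measured 7.53 and 7.60 in irradiated and 6.90 and 7.35 in control arrays, so the control arrays were far apart (0.44 ± 0.18, limma unadjusted p = 0.0502). Fanca, the partner of Fancg, measured 8.28 and 7.82 in irradiated and 7.79 and 7.59 in control arrays, where replicate 2 of the irradiated group stood only 0.03 above the nearer control (0.36 ± 0.19, limma unadjusted p = 0.107). Fancl, the ubiquitin ligase itself, measured 7.18 and 6.81 in irradiated and 6.71 and 6.88 in control arrays, with overlap (0.20 ± 0.16, limma unadjusted p = 0.275). The other 3 genes belong to the part of the complex that brings in the substrate. Fancc measured 6.55 and 6.44 in irradiated and 6.42 and 6.45 in control arrays, Fance 8.03 and 7.82 in irradiated and 8.07 and 7.93 in control arrays, and Fancf 8.36 and 8.17 in irradiated and 8.43 and 8.55 in control arrays. Their differences were 0.06, −0.075 and −0.225, and Fancf alone of these had groups that did not overlap (limma unadjusted p = 0.622, 0.597 and 0.136). Fancc was the 1 member whose mean lay below the median of the genes tested.

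**Figure D3:**
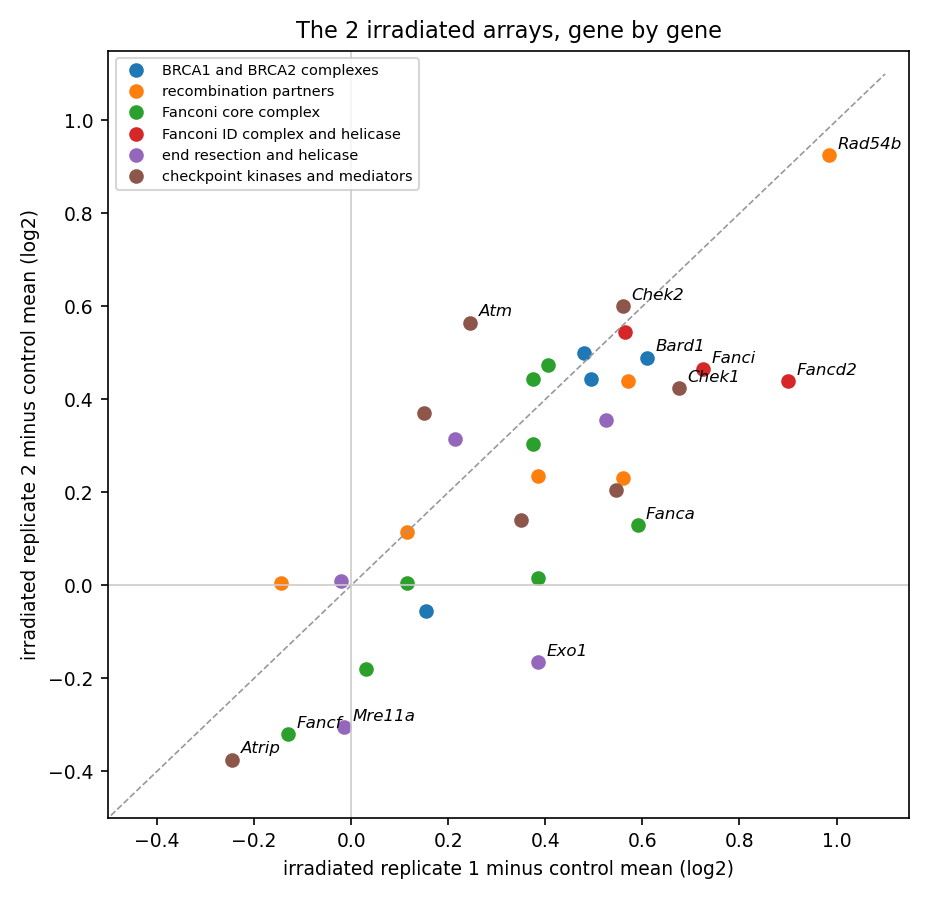
Each irradiated array against the control mean for 33 genes, with irradiated replicate 1 on the horizontal and replicate 2 on the vertical axis (log2 units), coloured by role. Points below the dashed line of equal values are the 23 genes that were higher in replicate 1, Exo1, Fanca and Fancd2 among the farthest from it, and Atm lies on the other side.

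The genes that sense and trim broken ends had the smallest median difference of the roles, 0.11, and 1 of 5 was higher at an unadjusted p under 0.05, against 5.21% of all genes. Mre11a, Nbn and Rad50 encode the complex that first binds an end. Mre11a measured 9.56 and 9.27 in irradiated and 9.57 and 9.58 in control arrays (−0.16 ± 0.14, limma unadjusted p = 0.302), so its irradiated replicate 1 matched the controls to within 0.02 and replicate 2 did not. Nbn measured 7.44 and 7.47 in irradiated and 7.44 and 7.48 in control arrays (−0.005 ± 0.11, limma unadjusted p = 0.966). A dimmer probe set of Nbn measured 6.57 and 6.29 in irradiated and 6.64 and 6.67 in control arrays, −0.225 in the fit of all annotated probe sets (limma unadjusted p = 0.165). Rad50 measured 10.26 and 10.36 in irradiated and 10.03 and 10.06 in control arrays, above both controls but short of the threshold (0.265 ± 0.11, limma unadjusted p = 0.0633).

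The nuclease gene Exo1, which extends resection, had the largest distance between irradiated replicates, 0.55. It measured 9.06 and 8.51 in irradiated and 8.69 and 8.66 in control arrays, so that 1 irradiated array lay above both controls and the other below them (0.11 ± 0.20, limma unadjusted p = 0.603). Blm, the Bloom syndrome helicase that resolves recombination intermediates, was the 1 gene of this role past the unadjusted threshold. It measured 8.62 and 8.45 in irradiated and 8.09 and 8.10 in control arrays, 0.44 ± 0.12 (limma unadjusted p = 0.0128, adjusted p = 0.402).

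Of the checkpoint genes, both effector kinases were higher. Chek2, the target of ATM, measured 8.12 and 8.16 in irradiated and 7.58 and 7.54 in control arrays, a difference of 0.58 ± 0.11, or 1.49-fold (limma unadjusted p = 0.00258, adjusted p = 0.301). Chek1, the target of ATR, measured 10.25 and 10.00 in irradiated and 9.58 and 9.57 in control arrays, 0.55 ± 0.13, or 1.46-fold (limma unadjusted p = 0.00747, adjusted p = 0.372). The groups of each were separated by more than the distance between replicates.

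The apical kinases had more signal in irradiated replicate 2 than in replicate 1, the reverse of most members. Atm measured 8.36 and 8.68 in irradiated and 8.03 and 8.20 in control arrays, 0.405 ± 0.15 (limma unadjusted p = 0.0434, adjusted p = 0.477). Atr measured 9.35 and 9.57 in irradiated and 9.19 and 9.21 in control arrays, 0.26 ± 0.13 (limma unadjusted p = 0.0937). Atrip, the obligate partner of ATR, went the other way, at 7.94 and 7.81 in irradiated and 8.29 and 8.08 in control arrays, −0.31 ± 0.13 (limma unadjusted p = 0.0621, adjusted p = 0.505), the lowest difference of the list. The mediators of the ATR branch fell short of the threshold. Clspn, which presents CHK1 to ATR, measured 7.87 and 7.53 in irradiated and 7.34 and 7.31 in control arrays (0.375 ± 0.15, limma unadjusted p = 0.0508). Topbp1, the activator of ATR, measured 10.92 and 10.71 in irradiated and 10.49 and 10.65 in control arrays (0.245 ± 0.14, limma unadjusted p = 0.125). For all 7 checkpoint genes the groups did not overlap, with 6 higher and 1, Atrip, lower, against 17.8% of all genes above and 23.9% below both controls.

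Other genes of the same pathways were given for comparison, from 4 lists with 76 of 81 genes measured. In these, 8 genes were higher and 2 lower at an unadjusted p under 0.05, against 5.21% and 5.1% of all genes, and the median difference was 0.0475. Among 27 other recombination and resection genes the median was 0.14 and 6 were higher. Gen1, a nuclease that cuts Holliday junctions, measured 9.21 and 9.46 in irradiated and 8.58 and 8.64 in control arrays (0.725 ± 0.13, limma unadjusted p = 0.00222, adjusted p = 0.294). Eme1, the partner of the MUS81 nuclease, differed by 0.46, Rpa3, a subunit of the single-strand binding protein, by 0.395 and Mms22l, which acts at stalled forks, by 0.435. Both irradiated arrays lay above both controls for these 4, as for 17.8% of all genes.

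The other Fanconi, checkpoint and BRCA1-A genes had medians near that of all genes. Over all genes, 5.21% were higher and 5.1% lower at an unadjusted p under 0.05. A single lower gene in a list of 19 or of 23 is near that share. Among 19 other Fanconi genes the median was −0.015, with Cenpx, which encodes a DNA-binding partner of FANCM (0.425), and the ligase gene Rfwd3 (0.33) higher and the nuclease gene Fan1 lower at an unadjusted p under 0.05. Fan1 measured 7.58 and 7.56 in irradiated and 7.93 and 7.88 in control arrays (−0.335 ± 0.11, limma unadjusted p = 0.0261, adjusted p = 0.443). Ercc4, a nuclease subunit that unhooks crosslinks, differed by −0.29 (limma unadjusted p = 0.051). Among 23 other checkpoint genes the median was 0.01, with 0 higher and 1 lower past the threshold. That gene was Wee1, the kinase that restrains entry into mitosis, which measured 11.16 and 10.85 in irradiated and 11.49 and 11.52 in control arrays (−0.50 ± 0.14, limma unadjusted p = 0.0156, adjusted p = 0.422). Its opponent Cdc25c, a phosphatase that promotes mitosis, differed by 0.48, the damage mediator Mdc1 by 0.35 and the WEE1 relative Pkmyt1 by 0.395 (limma unadjusted p = 0.0646, 0.0605 and 0.094). Of 7 genes of the BRCA1-A complex and shieldin, which restrain resection, 0 passed either way, and the median was −0.065. The 4 with the smallest p were Babam1 (−0.285), Shld1 (−0.15), Brcc3 (−0.135) and Abraxas1 (0.08). Whether the members differ from these lists was not tested.

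**Figure D4:**
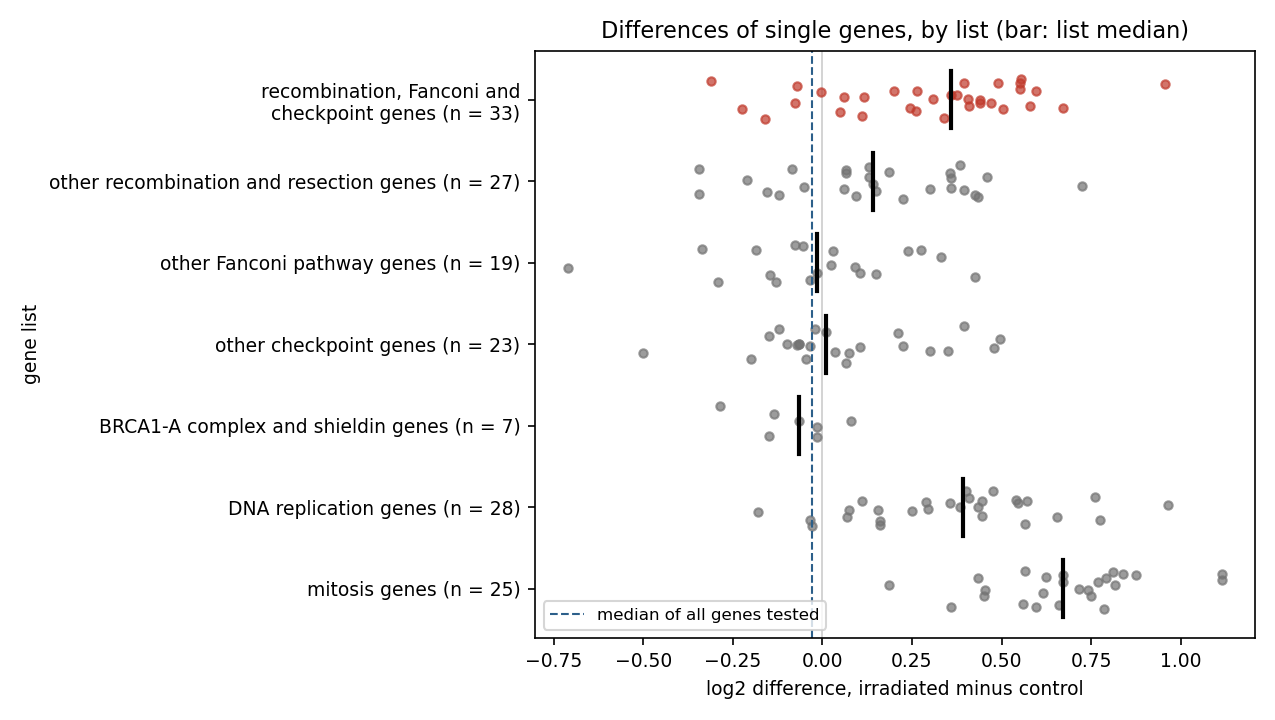
Log2 difference of irradiated minus control arrays (horizontal axis) for single genes of 7 lists, with the number of measured genes beside each name. Black bars are list medians, 0.36 for the recombination, Fanconi and checkpoint genes and 0.67 for mitosis genes, and the dashed line is the median of all genes tested, −0.03.

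Genes of the cell cycle were also higher on the same arrays. Of all genes, 5.21% were higher and 5.1% lower at an unadjusted p under 0.05. Among 28 DNA replication genes the median difference was 0.3925, with 13 higher and 0 lower at an unadjusted p under 0.05, and the smallest p were those of Orc1 (0.775), Pola1 (0.76), Rrm2 (0.965) and Fen1 (0.54). Among 25 mitosis genes the median was 0.67, with 22 higher and 0 lower at that threshold, the smallest p being those of Hmmr and Cenpe (1.115 each), Ncapg (0.815) and Foxm1 (0.785). By array, the median distance from the control mean was 0.385 in irradiated replicate 1 and 0.305 in replicate 2 for the recombination, Fanconi and checkpoint genes. It was 0.54 and 0.275 for the replication genes and 0.905 and 0.505 for the mitosis genes. Replicate 1 was the higher irradiated array for 23 of 33, 23 of 28 and 25 of 25 genes. The same held for 10627 of all 19938 genes tested. The part of cell cycle composition in the differences of the repair genes was not tested.

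Some genes of the cell type marker lists also differed between the groups. Their counts are to be read beside 5.21% of all genes higher and 5.1% lower at an unadjusted p under 0.05. Of 13 neutrophil markers, 1 was higher, Ly6g, and 7 were lower at an unadjusted p under 0.05, with a median of −0.66. The mean log2 level of that list was 5.92 and 5.94 in irradiated and 6.32 and 6.47 in control arrays, while its summed intensity on the linear scale was 4760 and 4367 in irradiated and 1384 and 1543 in control arrays. Ly6g itself measured 12.04 and 11.89 in irradiated and 8.87 and 8.82 in control arrays on the log2 scale. It alone made up most of the sum in the irradiated arrays, while 11 of the 13 markers had a negative difference. Of the 12 epithelial and trophoblast markers, 1 was higher and 4 lower, and their summed intensity was 34722 and 22568 in irradiated and 42448 and 41990 in control arrays. Of 14 macrophage markers, 2 were higher, Mrc1 (0.90) and Lyz2 (0.57), and 1 lower, Csf1r (−0.52), and their summed intensity was 1559 and 1427 in irradiated and 1392 and 1427 in control arrays, and that of the 10 T cell markers 480 and 403 in irradiated and 513 and 490 in control arrays. Of 8 B cell, 12 pan-leukocyte, 10 erythroid and 9 mesothelial markers, 0, 1, 0 and 0 were higher and 0, 2, 2 and 2 lower at that threshold. The 2 lower mesothelial markers, Krt18 and Krt19, are also among the 4 lower epithelial and trophoblast markers. The part of all these marker genes in the repair gene differences was not tested.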

How the data were processed

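RNA of 4 samples (300 ng each) was hybridised to one-colour arrays after biotin labelling, per the labels' protocols. The authors deposited a table of log2 intensities per probe set, for which the submitters' processing notes name RMA, a method that corrects background, equalises arrays and summarises probes. The sources used here give no RMA version, genome build or annotation. RMA forces a common distribution on the arrays, so a shift shared by most genes cannot be seen. The table held 35556 probe sets and 0 columns of other samples. With arrays, their number limits the precision.

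Probe sets were named from the platform annotation, and old symbols were replaced by way of their Entrez numbers (RefSeq, GRCm38.p6). Of them, 21789 had 1 symbol, 1621 several and 12146 were unlisted. Of the 21789, 21698 were found in RefSeq. The brightest probe set by the mean of all arrays stood for each of the 999 genes with more than 1, which left 19938 genes. Groups were compared with limma 3.58.1 in R 4.3.3 (lmFit, eBayes, two-sided), and p-values were adjusted by Benjamini-Hochberg over the whole table; no list was tested as a set. The procedure was tested on simulated data with independent genes and an equal spread in both groups. The irradiated arrays lay farther apart than the control arrays, so that test does not cover an unequal spread. Tables and motif searches used Python 3.11.15 and pandas 2.3.3.

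The members and lists were chosen with earlier results of these data known. By the naming rule every member was named, the 4 smallest p of each pathway, replication and mitosis list, and, of marker lists, genes among the 3 brightest or 2 smallest p; Ptprc, outside that rule, was named after its values were seen. The comparison of list medians with those of all genes is a description. Alternatives were filters on dim genes at the 25th percentile and the median, quantile normalization, median centring, cyclic loess, averaging the probe sets of a gene, a fit of every annotated probe set, a replicate block, eBayes with trend or robust, a fold of 1.5, and each array left out. Protein sequences were not used here.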

Additional observations from a re-analysis of the deposited data

How the results depend on the processing

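The count of 16 members higher at an unadjusted p under 0.05 lay between 16 and 19 in the 10 alternative limma fits that used all 4 arrays, where 4.68% to 8.25% of all genes were higher, and between 2 and 18 with 1 array left out; at least 1.5-fold as well, it was 3. Adjusted over all genes it was 0 in each of the 15 fits. Members lower were 0, but 1 with quantile normalization (Atrip) and between 0 and 1 with an array left out. The median difference of 0.36 was 0.34 with quantile normalization, 0.395 with median centring and 0.39 with cyclic loess, and ran from 0.305 to 0.385 with an array left out. For the other pathway genes, 8 higher became 13 with median centring and 1 at 1.5-fold. With an array left out they ran from 1 to 17 higher and from 0 to 9 lower. Nbn changed sign with quantile normalization (0.00625), median centring (0.03) and cyclic loess (0.0285). With an array left out, signs were not constant for Palb2 (−0.055 to 0.155), Rad52 (−0.165 to 0.025), Fance (−0.18 to 0.03), Nbn (−0.025 to 0.015) and Exo1 (−0.165 to 0.385). The labels do not say that equal replicate numbers share an animal or day, and deviations of same-numbered arrays correlated with r = 0.0676 over genes, which are not independent. With the replicate block the count was 16, but Rad51ap1 no longer passed (limma unadjusted p = 0.0789) and Fancb did (limma unadjusted p = 0.0458). The block cannot change a difference in this balanced layout, so the median of 0.36 was fixed in advance.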
